A study of Mus musculus with 20 samples.

Results

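Interferon-stimulated genes are the genes that a cell switches on when interferon, a secreted alarm protein of antiviral defence, binds its receptors. The receptors signal through Jak kinases to Stat proteins, and a complex that holds Stat2 and Irf9 then binds a short DNA element, the interferon-stimulated response element, in front of these genes. In brain, many of them have a low basal level, and microglia, endothelial cells, astrocytes and neurons can all raise them after infection or injury. The set described here holds 40 genes, chosen by name: a gene is a member if its symbol is on the list of interferon-stimulated genes, whatever its counts. The list itself was chosen with earlier results of these data known. All 40 were listed in both deposited tables, out of 17442 genes in the cortex table and 17586 in the hippocampus table.

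Total RNA of mouse brain was sequenced in 20 libraries. The 4 groups of 5 libraries were Ncs1-/- frontal cortex (KO cortex), wild-type frontal cortex (WT cortex), Ncs1-/- hippocampus (KO hippocampus) and wild-type hippocampus (WT hippocampus), with C57Bl6/J as the strain. Ncs1 codes for a neuronal protein that senses calcium. The labels used here give no treatment and no age, and they do not say how the knockout allele was made. Nor do they tell if each library is a different mouse, so p-values measure only the spread between these libraries, which may be technical. The labels put the cortex libraries on one sequencing lane and the hippocampus libraries on another, so lane and region cannot be told apart.

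The deposited values were estimated counts per gene, with library totals between 16609603 and 34612610 counts. Levels are given as CPM, counts scaled to a common library size, after scaling by the trimmed mean of M values (TMM) over all 20 libraries. Ncs1 itself averaged 259 ± 3.68 CPM in KO cortex and 368 ± 17.4 CPM in WT cortex, and 300.3 ± 21.2 CPM in KO hippocampus and 441 ± 17.3 CPM in WT hippocampus (SD, n = 5 each), so its reads were lower in every KO library but not absent. Marker genes of cortical neurons summed to between 177 and 292 CPM in hippocampus libraries and between 581 and 762 CPM in cortex libraries. Marker genes of hippocampal neurons summed to between 457 and 734 CPM in hippocampus libraries and between 124 and 193 CPM in cortex libraries, in the direction of the labels. Choroid plexus and ependyma markers set 3 libraries apart, at 3550.0 CPM in KO hippocampus replicate 2, 2292 CPM in WT hippocampus replicate 4 and 253 CPM in KO cortex replicate 1.

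Promoters of 30 of the 40 members were in the RefSeq promoter table (build GRCm38.p6), as windows from 250 bases before to 50 bases after a transcript start. The response element, searched as GAAANNGAAA on both strands, was present in a window of 16 of these 30 genes (53.3%), beside 1079 of 27025 genes of the whole table (3.99%). The related Stat dimer element, searched as TTCNNNGAA, which is its own reverse complement, was present for 8 of 30 members (26.7%) and for 2582 of 27025 genes (9.55%). In Bst2 and in Ifitm3 a match of one element overlapped a match of the other. A match is a description of the letters only. The 200 bases before the start are shown for 4 members that lead the cortex values below, with the response element in capitals: Isg15 holds 3 overlapping copies, Ifit1 and Ifit3 hold a pair each on the opposite strand, and Trim30d holds 1, also on the opposite strand.
Isg15, minus strand, chr4:156200819-156201018: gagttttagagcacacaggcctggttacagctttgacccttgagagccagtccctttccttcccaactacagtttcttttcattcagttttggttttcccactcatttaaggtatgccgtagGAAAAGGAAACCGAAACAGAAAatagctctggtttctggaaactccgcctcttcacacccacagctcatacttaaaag
Ifit1, plus strand, chr19:34640689-34640888: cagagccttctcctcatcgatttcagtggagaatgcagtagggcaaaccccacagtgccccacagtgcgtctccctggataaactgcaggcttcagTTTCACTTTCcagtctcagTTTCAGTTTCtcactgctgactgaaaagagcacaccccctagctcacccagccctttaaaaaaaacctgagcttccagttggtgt
Ifit3, plus strand, chr19:34583329-34583528: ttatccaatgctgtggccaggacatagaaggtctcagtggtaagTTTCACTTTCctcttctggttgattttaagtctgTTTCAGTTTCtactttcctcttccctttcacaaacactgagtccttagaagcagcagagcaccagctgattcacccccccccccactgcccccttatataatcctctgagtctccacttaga
Trim30d, minus strand, chr7:104507850-104508049: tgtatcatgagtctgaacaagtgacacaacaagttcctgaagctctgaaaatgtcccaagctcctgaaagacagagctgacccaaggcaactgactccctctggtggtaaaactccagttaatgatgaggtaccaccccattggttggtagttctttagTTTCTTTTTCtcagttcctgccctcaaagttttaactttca
Oasl2, Irf9 and Xaf1, which also stand among the leading cortex values, had no match in their windows.

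Several members are neighbours in the genome. The 4 Ifit genes lie on chromosome 19, Gbp2, Gbp3 and Gbp7 on chromosome 3, Oasl1 with Oasl2 and Oas1a with Oas2 on chromosome 5, Trim30a and Trim30d on chromosome 7, Rsad2 and Cmpk2 on chromosome 12, and, in separate stretches of chromosome 16, Parp9 with Dtx3l and Parp14, and Mx1 with Mx2. Ifit3 and Ifit3b had counts that were not whole in all 20 libraries, and Trim30a and Trim30d in 7 of 10 libraries of each region, and the split of reads between these near-identical copies is uncertain. Parp9 and Dtx3l overlap on opposite strands, and no source used here says whether the counting used strand. Stat2 overlaps Apof and Ifi27 overlaps Ifi27l2a in the tables.

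Levels were low. Over the 20 libraries, 9 of the 40 members averaged under 1 CPM, 25 averaged between 1 and 10 CPM, and 6 averaged 10 CPM or more. Levels of different genes were set side by side per kilobase of exon, with the union of all annotated exons of a gene as its length. This length may differ from that of the transcripts present, so the order is approximate. Per kilobase, the highest mean levels were those of Ifitm3 (9.43 CPM per kb), a membrane protein that blocks virus entry, and Ifi27 (9.12 CPM per kb), a small mitochondrial protein. Cmpk2, a mitochondrial nucleotide kinase, followed at 6.45 CPM per kb, then Ifit3 at 4.60 and Stat2 at 4.13 CPM per kb. The lowest were Zbp1 (0.0268 CPM per kb), Mx1 (0.0349) and Oasl1 (0.0632), whose counts per library never passed 8.

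In frontal cortex most members were higher in KO than in WT libraries, but no member passed the test. Of the 40 members, 36 had a positive log2 fold change of KO over WT with no filter on low counts, and the median of the 40 was 0.28. The test was the quasi-likelihood test of edgeR, with p adjusted by Benjamini and Hochberg's method over the 14823 cortex genes that passed a filter on low counts, and 35 members passed that filter. Among these 35, 31 were above 0 with a median of 0.23, beside 50.63% of all genes tested and a median of 0.00. None of the 35 had an adjusted p under 0.05, where 4 of 14823 genes did (0.027%). At an unadjusted p under 0.05, 8 of 35 members were higher in KO cortex, where 8.08% of all genes were, and 0 were lower, where 6.75% of all genes were. As the list was chosen with earlier results known, these contrasts with all genes are a description and not a test. DESeq2 gave 6 members and limma-voom 8 members at that unadjusted level, and the shares of all genes in these fits were not worked out. After adjustment limma-voom gave 0, and DESeq2 gave 0 but set an adjusted p for only 1 of the 35 members; without its independent filtering, an alternative chosen after seeing the data, it set one for all 35 and gave 0. Marker lists of other cell types differed in direction. Of the microglia, astrocyte and neuron markers, 1 of 12, 0 of 10 and 1 of 9 were above 0. Above 0 were 4 of 5 tested perivascular macrophage markers (median 0.27), 7 of 8 meningeal fibroblast markers (median 0.28) and 3 of 4 choroid plexus and ependyma markers (median 0.88), with 0 past the threshold, and their part in the members' values was not tested. Their sums lay between 14.0 and 19.6 CPM in KO cortex and 7.52 and 21.0 CPM in WT cortex for perivascular macrophages, and between 121 and 179.6 CPM in KO cortex and 84.8 and 159.6 CPM in WT cortex for meningeal fibroblasts. The choroid plexus and ependyma sums lay between 13.2 and 253 CPM in KO cortex and 8.91 and 17.9 CPM in WT cortex. Oligodendrocyte markers were above 0 for 6 of 8 (median 0.02) and blood cell markers for 4 of 5 (median 0.10). Endothelial, cortical neuron and hippocampal neuron markers were above 0 for 4 of 10, 1 of 6 and 2 of 6. T cell, B cell and neutrophil sums lay between 5.955 and 35.9 CPM in KO cortex and 5.886 and 9.605 CPM in WT cortex, highest in KO replicate 3. The part of these lists was not tested either. In bulk tissue, a change in the number of cells that express a gene and a change in RNA per cell cannot be told apart.

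**Figure D1:**
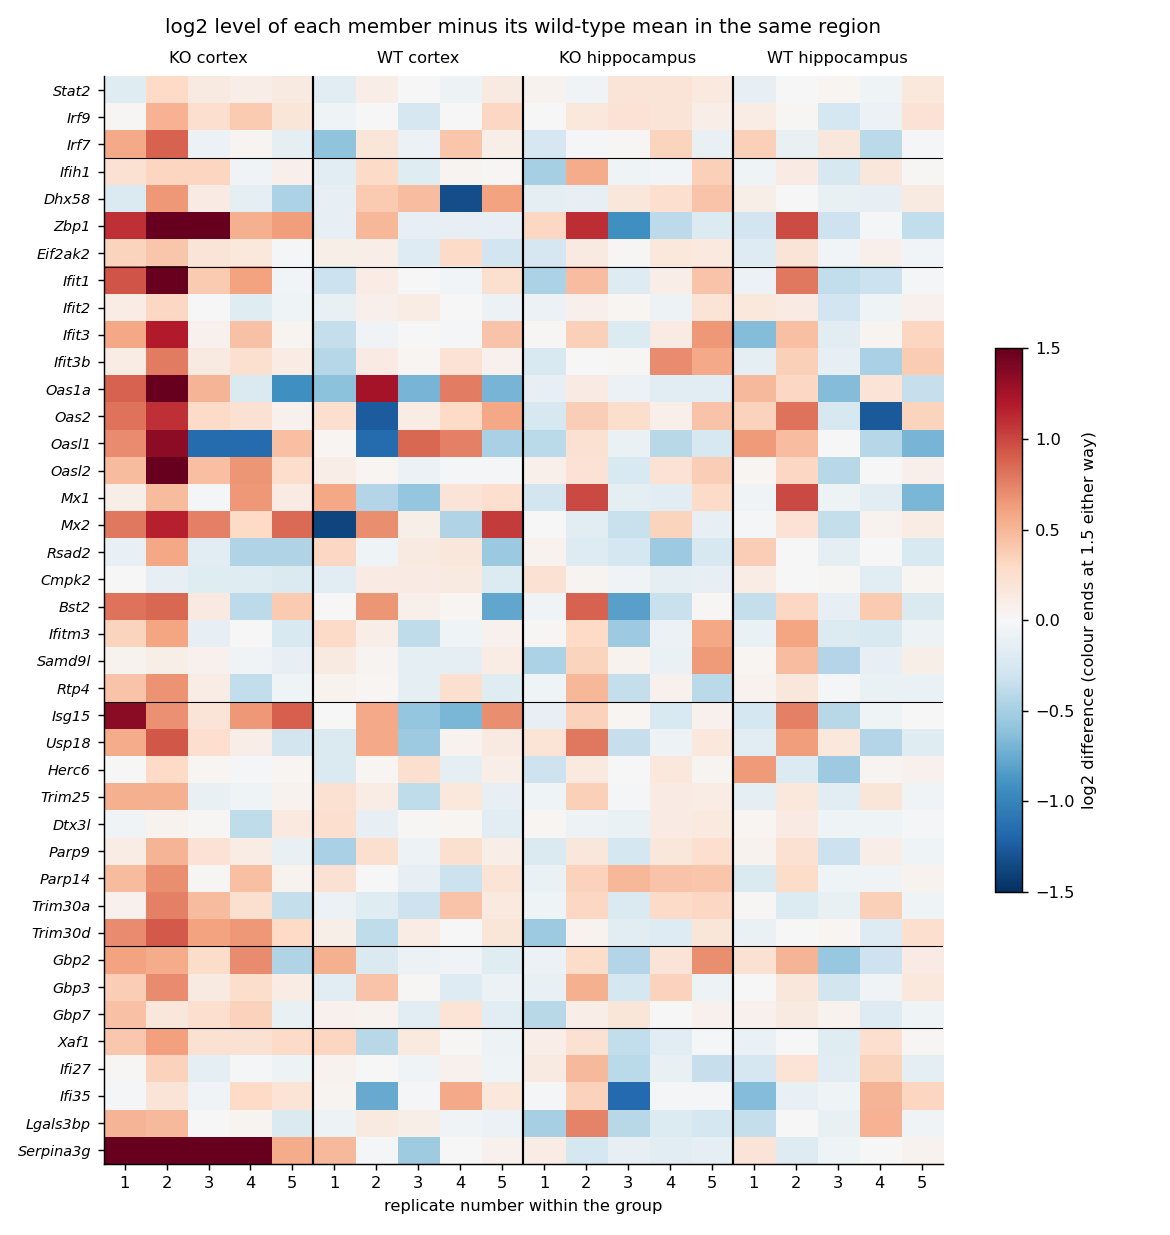
Each row is 1 of the 40 members, in the order of their roles (thin lines), and each column 1 library. Colour gives the library's log2 level minus the mean of the wild-type libraries of the same region, with a prior count of 2; KO cortex replicate 2 is the darkest red column, with a median difference of 0.63 over the 40 members.

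One library was high for most members. KO cortex replicate 2 was the highest of the 10 cortex libraries for 30 of the 40 members, as the map of differences by library shows. Its median difference from the WT cortex mean was 0.63 on the log2 scale. KO cortex replicate 1, second in this order, held the highest sums of choroid plexus and of meningeal fibroblast markers in cortex (253 and 179.6 CPM), and their part was not tested. The medians of KO cortex replicates 1, 3, 4 and 5 were 0.41, 0.13, 0.13 and 0.05, and those of the 5 WT cortex libraries lay between -0.07 and 0.07. Summed over the 40 members, the KO cortex libraries held 254, 302, 233, 234 and 219 CPM, and the WT cortex libraries 214, 234, 222, 228 and 223 CPM. Without KO cortex replicate 2, 27 of 35 members were above 0, and the median was 0.13, beside 0.0005 over all genes. In that fit 3 members had an unadjusted p under 0.05, and the share of all genes at that level was not worked out. Among the 10 cortex libraries, from the highest marker sum down, KO cortex replicate 2 ranked 10 for microglia markers (374 CPM), 9 for endothelial markers, 10 for astrocyte markers, 9 for T cell, B cell and neutrophil markers, 8 for meningeal fibroblast markers, 3 for oligodendrocyte markers (3867 CPM) and 3 for perivascular macrophage markers (18.7 CPM); the part of cell makeup was not tested.

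The antiviral effectors included several of the leading members in cortex. With no filter, 14 of these 16 members were above 0, with a median of 0.33. Ifit1, which binds foreign RNA by its end, had 5.11, 7.55, 3.46, 4.02 and 2.54 CPM in KO cortex replicates 1 to 5, against 2.08, 2.83, 2.62, 2.53 and 3.12 CPM in WT cortex replicates 1 to 5. The KO libraries were above the highest WT library in 4 of 5 cases, and the lowest KO library lay within the WT range. The log2 fold change of Ifit1 was 0.79 (SE 0.24, adjusted p = 0.235), and 0.52 without KO cortex replicate 2. Ifit3, a partner of Ifit1, had 11.3, 17.3, 7.87, 10.25 and 7.75 CPM in KO cortex, against 5.85, 7.25, 7.52, 7.45 and 10.18 CPM in WT cortex. The groups overlapped, with 3 of 5 KO libraries above the highest WT library. Its log2 fold change was 0.52 (SE 0.20, adjusted p = 0.282), and 0.28 without KO cortex replicate 2. Its near-copy Ifit3b had 5.35, 8.52, 5.41, 5.83 and 5.33 CPM in KO cortex, against 3.66, 5.37, 5.02, 5.75 and 5.14 CPM in WT cortex. Summed, Ifit3 and Ifit3b averaged 17.0 ± 5.20 CPM in KO cortex and 12.6 ± 2.08 CPM in WT cortex (SD, n = 5 each).

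Oasl2, a relative of the oligoadenylate synthetases, separated the genotypes in cortex: 3.25, 7.14, 3.20, 3.72 and 2.78 CPM in KO cortex, against 2.48, 2.35, 2.16, 2.29 and 2.28 CPM in WT cortex. Every KO library was above every WT library, and replicate 2 was far above the other 4. The log2 fold change was 0.81 (SE 0.23, adjusted p = 0.230), and 0.49 without KO cortex replicate 2. Over the 16 alternatives that set one, the adjusted p of Oasl2 lay between 0.0788 and 0.468. Oas2 averaged 0.713 ± 0.252 CPM in KO cortex and 0.503 ± 0.219 CPM in WT cortex, Mx2 0.816 ± 0.187 and 0.521 ± 0.351 CPM, and Bst2, which tethers budding viruses to the cell, 1.31 ± 0.464 and 1.001 ± 0.368 CPM (SD, n = 5 each). Ifitm3 averaged 6.46 ± 1.61 CPM in KO cortex and 5.88 ± 0.992 CPM in WT cortex, Rtp4 2.13 ± 0.620 and 1.85 ± 0.232 CPM, Ifit2 15.8 ± 2.06 and 15.3 ± 1.03 CPM, and Samd9l, an inhibitor of viral translation, 9.10 ± 0.564 and 9.08 ± 0.863 CPM. None of these differences passed the test. Oas1a, Oasl1 and Mx1 did not pass the filter in cortex, and averaged 0.523, 0.165 and 0.214 CPM in KO cortex and 0.382, 0.136 and 0.171 CPM in WT cortex.

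The only 2 effectors below 0 in cortex were the neighbours Rsad2, viperin, and Cmpk2. Rsad2 had 1.86, 3.08, 1.78, 1.46 and 1.45 CPM in KO cortex, against 2.53, 1.93, 2.24, 2.29 and 1.35 CPM in WT cortex, a log2 fold change of -0.10 (SE 0.23, adjusted p = 0.874). Its KO replicate 2 was the highest of the 10 libraries, while the other 4 KO libraries lay within the WT range. Cmpk2 had 31.8, 29.5, 28.2, 28.2 and 27.5 CPM in KO cortex, against 28.4, 35.0, 34.8, 35.2 and 27.7 CPM in WT cortex, a log2 fold change of -0.15 (SE 0.08, adjusted p = 0.381). Cmpk2 was 1 of the 10 members for which KO cortex replicate 2 was not the highest cortex library.

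In the Isg15 and ubiquitin system, 8 of 9 members were above 0 in cortex, with a median of 0.27. Trim30d, a tripartite-motif protein, had 2.21, 2.57, 2.05, 2.11 and 1.63 CPM in KO cortex, against 1.41, 0.989, 1.43, 1.31 and 1.51 CPM in WT cortex. The 5 KO libraries were all above the 5 WT libraries. Its log2 fold change was 0.67 (SE 0.18, adjusted p = 0.214), the smallest p of the 35 members that passed the filter in cortex (unadjusted p = 0.00188), and 0.59 without KO cortex replicate 2. Over the 16 alternatives that set one, the adjusted p of Trim30d lay between 0.0523 and 0.468; DESeq2 with its independent filtering set none. Its near-copy Trim30a averaged 3.72 ± 1.07 CPM in KO cortex and 3.10 ± 0.676 CPM in WT cortex, and the sum of the pair averaged 5.84 ± 1.37 CPM in KO cortex and 4.43 ± 0.737 CPM in WT cortex, with overlapping ranges (3.99 to 7.75 and 3.67 to 5.45 CPM). Trim30d and Oasl2 were the only 2 of 35 tested members whose KO cortex libraries all lay above the WT libraries, where 0.958% of all genes tested did so; 0 members lay wholly below, where 1.21% of all genes did.

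Isg15, the ubiquitin-like protein that gives the system its name, had 1.28, 0.770, 0.525, 0.754 and 0.908 CPM in KO cortex, against 0.450, 0.706, 0.270, 0.243 and 0.779 CPM in WT cortex. The groups overlapped, and the highest library was KO replicate 1, not replicate 2. Its log2 fold change was 0.80 (SE 0.35, adjusted p = 0.317). Parp14, an ADP-ribosyltransferase, had 6.74, 7.91, 4.88, 6.63 and 5.02 CPM in KO cortex, against 5.68, 4.85, 4.44, 3.85 and 5.55 CPM in WT cortex, with 3 of 5 KO libraries above the highest WT library. The log2 fold change of Parp14 was 0.37 (SE 0.15, adjusted p = 0.293). Usp18, which removes Isg15 from proteins and restrains the receptor, averaged 0.807 ± 0.287 CPM in KO cortex and 0.628 ± 0.209 CPM in WT cortex, and Trim25, a ubiquitin ligase, 9.06 ± 2.06 and 7.88 ± 1.29 CPM. Herc6, the main Isg15 ligase of mouse, averaged 23.9 ± 2.24 and 22.8 ± 2.96 CPM, Parp9 4.08 ± 0.665 and 3.65 ± 0.715 CPM, and its partner Dtx3l 8.74 ± 1.17 CPM in KO cortex and 8.97 ± 1.07 CPM in WT cortex (SD, n = 5 each). Dtx3l was the 1 member of this role below 0.

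**Figure D2:**
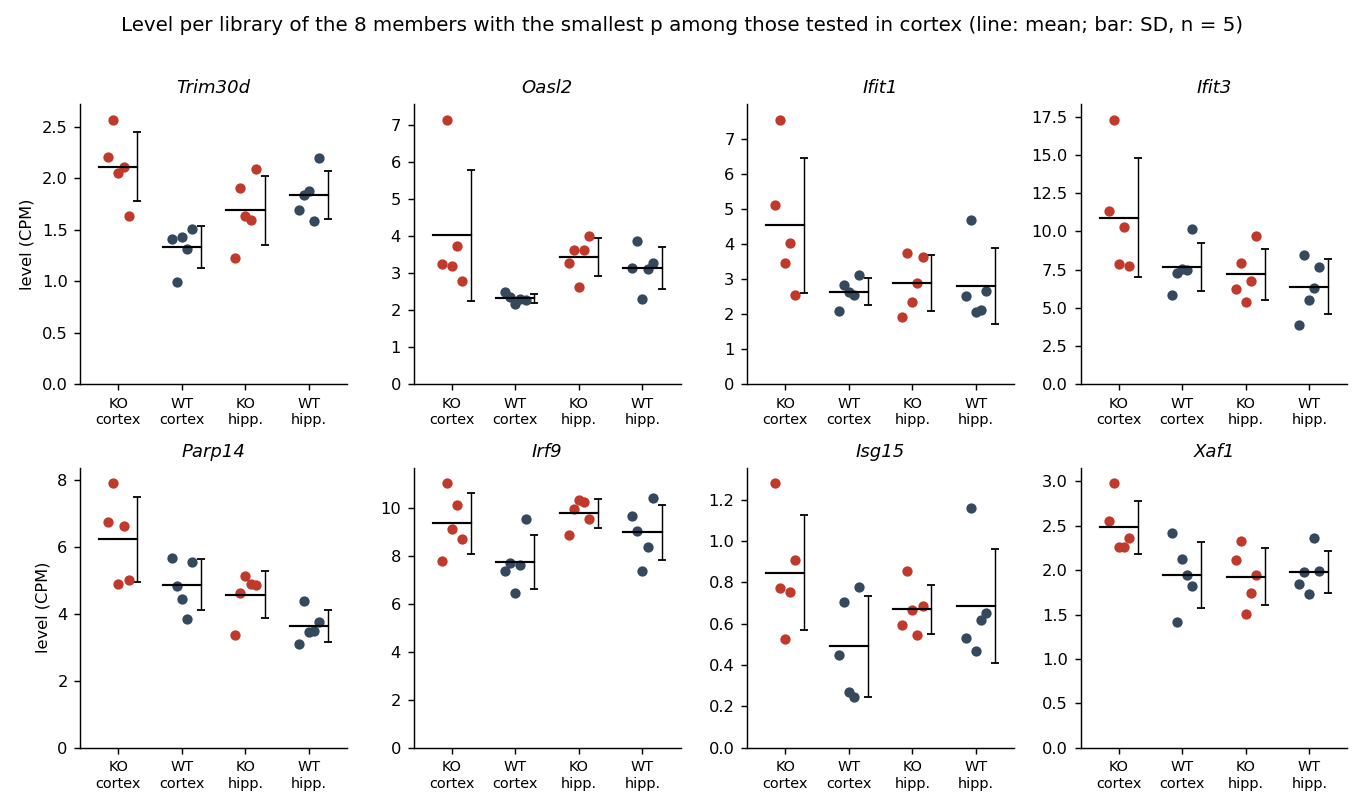
Level in CPM (linear axis from 0) of the 8 members with the smallest p among the 35 that passed the filter in cortex, 1 point per library, for KO cortex, WT cortex, KO hippocampus and WT hippocampus, with the mean as a line and the SD as a bar. In cortex the KO points of Trim30d and Oasl2 all lie above the WT points; in hippocampus the groups overlap in all 8 panels.

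Of the transcription factors, Irf9 had 7.79, 11.04, 9.13, 10.2 and 8.71 CPM in KO cortex, against 7.37, 7.72, 6.44, 7.64 and 9.55 CPM in WT cortex. Of the KO libraries, 2 lay above the highest WT library, WT replicate 5, and the groups overlapped. Its log2 fold change was 0.28 (SE 0.12, adjusted p = 0.295). Stat2 averaged 25.1 ± 2.93 CPM in KO cortex and 23.3 ± 1.99 CPM in WT cortex, and Irf7, which amplifies interferon production, 1.35 ± 0.475 and 1.10 ± 0.290 CPM. Neither passed the test, at adjusted p = 0.579 for Stat2 and 0.619 for Irf7.

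Among the sensors, 3 of 4 members were above 0 in cortex. Ifih1, a sensor of long double-stranded RNA, averaged 7.23 ± 0.794 CPM in KO cortex and 6.39 ± 0.886 CPM in WT cortex, and Eif2ak2, the kinase PKR, 9.02 ± 1.05 and 7.81 ± 1.26 CPM. Dhx58, a regulator of Ifih1, averaged 0.642 ± 0.234 CPM in KO cortex and 0.696 ± 0.321 CPM in WT cortex. Zbp1, a sensor of Z-form nucleic acid, had 2, 8, 5, 1 and 1 counts in the KO cortex libraries and 0, 1, 0, 0 and 0 counts in the WT cortex libraries. Scaled to CPM, every KO cortex library lay above every WT cortex library, but at so few reads Zbp1 did not pass the filter.

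The 3 guanylate-binding proteins, GTPases that attack the membranes around pathogens, were all above 0 in cortex. Gbp2 averaged 3.21 ± 0.902 CPM in KO cortex and 2.47 ± 0.609 CPM in WT cortex, Gbp3 4.82 ± 0.872 and 3.85 ± 0.747 CPM, and Gbp7 9.58 ± 1.34 and 8.20 ± 0.932 CPM (SD, n = 5 each). Their adjusted p was 0.407, 0.343 and 0.349, in that order. Of the remaining members, Xaf1, which antagonises an inhibitor of apoptosis, had 2.56, 2.98, 2.26, 2.26 and 2.36 CPM in KO cortex, against 2.42, 1.41, 2.12, 1.95 and 1.82 CPM in WT cortex, a log2 fold change of 0.36 (SE 0.16, adjusted p = 0.333). The groups overlapped through WT replicate 1. Lgals3bp, a secreted galectin-binding protein, averaged 10.8 ± 2.43 CPM in KO cortex and 9.47 ± 0.699 CPM in WT cortex, Ifi27 9.51 ± 1.33 and 9.28 ± 0.381 CPM, and Ifi35 1.38 ± 0.154 and 1.31 ± 0.426 CPM.

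Serpina3g, an intracellular inhibitor of cathepsins, stood apart in fold but rested on few reads in cortex. Its counts were 9, 22, 9, 26 and 3 in KO cortex replicates 1 to 5, against 3, 2, 1, 2 and 2 in WT cortex replicates 1 to 5. In CPM these were 0.523, 1.13, 0.472, 1.31 and 0.181 in KO cortex, against 0.169, 0.0942, 0.0386, 0.0974 and 0.104 in WT cortex. On the CPM scale the groups did not overlap, though the lowest KO library and the highest WT library both held 3 reads. Serpina3g did not pass the filter on low counts, and the fit with no filter gave 2.85 on the log2 scale (adjusted p = 0.153). The deposited tables list Serpina3g at chr12:104214454-104241944 (plus strand, build mm10), a span that contains its paralogue Serpina3f. Serpina3f had between 0 and 32 counts in the KO cortex libraries and between 0 and 1 in the WT cortex libraries, and how reads were assigned between these related genes was not tested.

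In hippocampus the members' median difference between genotypes was near 0, and no member passed the test. No member of 37 tested passed the adjusted threshold, where 4 of 15042 genes did (0.0266%). With no filter, 24 of 40 members were above 0 with a median of 0.04. Of the 37 tested, 24 were above 0 (64.86%) with a median of 0.04, beside 53.1% of all 15042 genes tested and a median of 0.01. At an unadjusted p under 0.05, 1 member was higher in KO hippocampus (2.7% of 37, where 2.6% of all genes were) and 0 were lower (1.18% of all genes). DESeq2 gave 1 member and limma-voom 0 members at that unadjusted level, where the shares of all genes were not worked out. No member had all KO hippocampus libraries above all WT hippocampus libraries, where 0.226% of all genes did, nor all below, where 0.219% did.

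The 1 member at that level was Parp14, with 3.36, 4.62, 5.13, 4.89 and 4.87 CPM in KO hippocampus, against 3.10, 4.40, 3.46, 3.48 and 3.75 CPM in WT hippocampus. Of the KO libraries, 4 lay above the highest WT library, and KO replicate 1 lay within the WT range. The log2 fold change of Parp14 was 0.34 (SE 0.14, adjusted p = 0.991) in hippocampus, beside 0.37 in cortex. Stat2 had 24.6, 22.9, 27.1, 27.3 and 26.4 CPM in KO hippocampus, against 21.9, 23.7, 24.2, 22.8 and 26.6 CPM in WT hippocampus, a log2 fold change of 0.12 (SE 0.07, adjusted p = 0.991). Irf9 had 8.87, 9.99, 10.3, 10.2 and 9.54 CPM in KO hippocampus, against 9.68, 9.05, 7.39, 8.40 and 10.4 CPM in WT hippocampus, a log2 fold change of 0.13 (SE 0.10, adjusted p = 0.991). For both factors the ranges of the genotypes overlapped.

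Rsad2 had the most negative difference of the 8 members with the smallest p among the 37 tested in hippocampus, with 2.05, 1.71, 1.63, 1.32 and 1.66 CPM in KO hippocampus, against 2.57, 1.98, 1.78, 1.97 and 1.67 CPM in WT hippocampus, a log2 fold change of -0.24 (SE 0.16, adjusted p = 0.991). Ifit3b had 3.21, 3.77, 3.84, 6.25 and 5.64 CPM in KO hippocampus, against 3.44, 4.89, 3.46, 2.67 and 4.97 CPM in WT hippocampus, a log2 fold change of 0.24 (SE 0.22, adjusted p = 0.991). All these ranges overlapped. Trim25 had 7.02, 9.48, 7.22, 8.04 and 7.96 CPM in KO hippocampus, against 6.73, 8.22, 6.60, 8.40 and 7.09 CPM in WT hippocampus, a log2 fold change of 0.11 (SE 0.11, adjusted p = 0.991). Oasl2 had 3.27, 3.61, 2.63, 3.61 and 4.01 CPM in KO hippocampus, against 3.15, 3.87, 2.29, 3.10 and 3.26 CPM in WT hippocampus, a log2 fold change of 0.14 (SE 0.16, adjusted p = 0.991). Its genotypes, apart in cortex, overlapped in hippocampus. Serpina3g had 3.66, 2.80, 3.09, 3.03 and 3.04 CPM in KO hippocampus, against 3.87, 2.95, 3.23, 3.41 and 3.50 CPM in WT hippocampus, a log2 fold change of -0.11 (SE 0.11, adjusted p = 0.991).

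By role and with no filter, the 4 sensors were all above 0 in hippocampus, with a median of 0.11, as were 2 of 3 transcription factors, 10 of 16 antiviral effectors, 6 of 9 members of the Isg15 and ubiquitin system and 2 of 3 guanylate-binding proteins, while 0 of the 5 remaining members were, with a median of -0.09. Among the sensors, Ifih1 averaged 4.48 ± 1.27 CPM in KO hippocampus and 4.18 ± 0.470 CPM in WT hippocampus, Dhx58 0.850 ± 0.159 and 0.770 ± 0.0709 CPM, and Eif2ak2 8.25 ± 0.931 and 8.004 ± 0.814 CPM. Among the effectors, Bst2 averaged 1.45 ± 0.717 CPM in KO hippocampus and 1.42 ± 0.355 CPM in WT hippocampus, Ifitm3 6.76 ± 1.95 and 6.46 ± 1.76 CPM, Rtp4 1.61 ± 0.455 and 1.63 ± 0.140 CPM, Mx2 0.430 ± 0.0939 and 0.450 ± 0.0769 CPM, Oas1a 0.461 ± 0.0481 and 0.517 ± 0.186 CPM, and Oas2 0.474 ± 0.0989 and 0.456 ± 0.247 CPM (SD, n = 5 each). None of these passed the test. Usp18 averaged 0.769 ± 0.267 CPM in KO hippocampus and 0.686 ± 0.235 CPM in WT hippocampus, Parp9 3.64 ± 0.613 and 3.56 ± 0.507 CPM, Dtx3l 10.1 ± 0.788 and 9.91 ± 0.560 CPM, Trim30a 2.97 ± 0.504 and 2.71 ± 0.437 CPM, and Irf7 1.16 ± 0.196 and 1.17 ± 0.246 CPM. Gbp2 averaged 3.12 ± 0.932 CPM in KO hippocampus and 2.85 ± 0.851 CPM in WT hippocampus, Gbp3 3.72 ± 0.915 and 3.45 ± 0.436 CPM, and Ifi35 1.32 ± 0.452 and 1.48 ± 0.458 CPM.

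Among the other leading cortex members, Ifit1 averaged 2.90 ± 0.797 CPM in KO hippocampus and 2.81 ± 1.08 CPM in WT hippocampus, Ifit3 7.18 ± 1.68 and 6.37 ± 1.81 CPM, Isg15 0.670 ± 0.118 and 0.686 ± 0.275 CPM, Trim30d 1.69 ± 0.332 and 1.84 ± 0.232 CPM, and Xaf1 1.93 ± 0.321 and 1.98 ± 0.238 CPM (SD, n = 5 each). Each of these 5 differences was smaller than the SD of either group. The highest of the 10 hippocampus libraries was a KO library for 24 members and a WT library for 16. KO hippocampus replicates 2 and 5 were highest for 10 and 8 members, with median differences from the WT mean of 0.25 and 0.13. WT hippocampus replicates 1 and 2 were highest for 6 and 5 members, with median differences of -0.01 and 0.18. WT hippocampus replicate 3 lay at -0.15. Meningeal fibroblast markers summed to 373 and 336 CPM in KO hippocampus replicates 2 and 5 and to 357 CPM in WT hippocampus replicate 2. These were the 3 highest sums of the 10, and WT replicate 3 had 139 CPM. The part of these markers in the members' levels was not tested. Lgals3bp peaked in the 2 hippocampus libraries with the most choroid plexus and ependyma markers, at 20.2 CPM in KO replicate 2 and 17.4 CPM in WT replicate 4, against at most 12.1 CPM in the other 8.

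**Figure D3:**
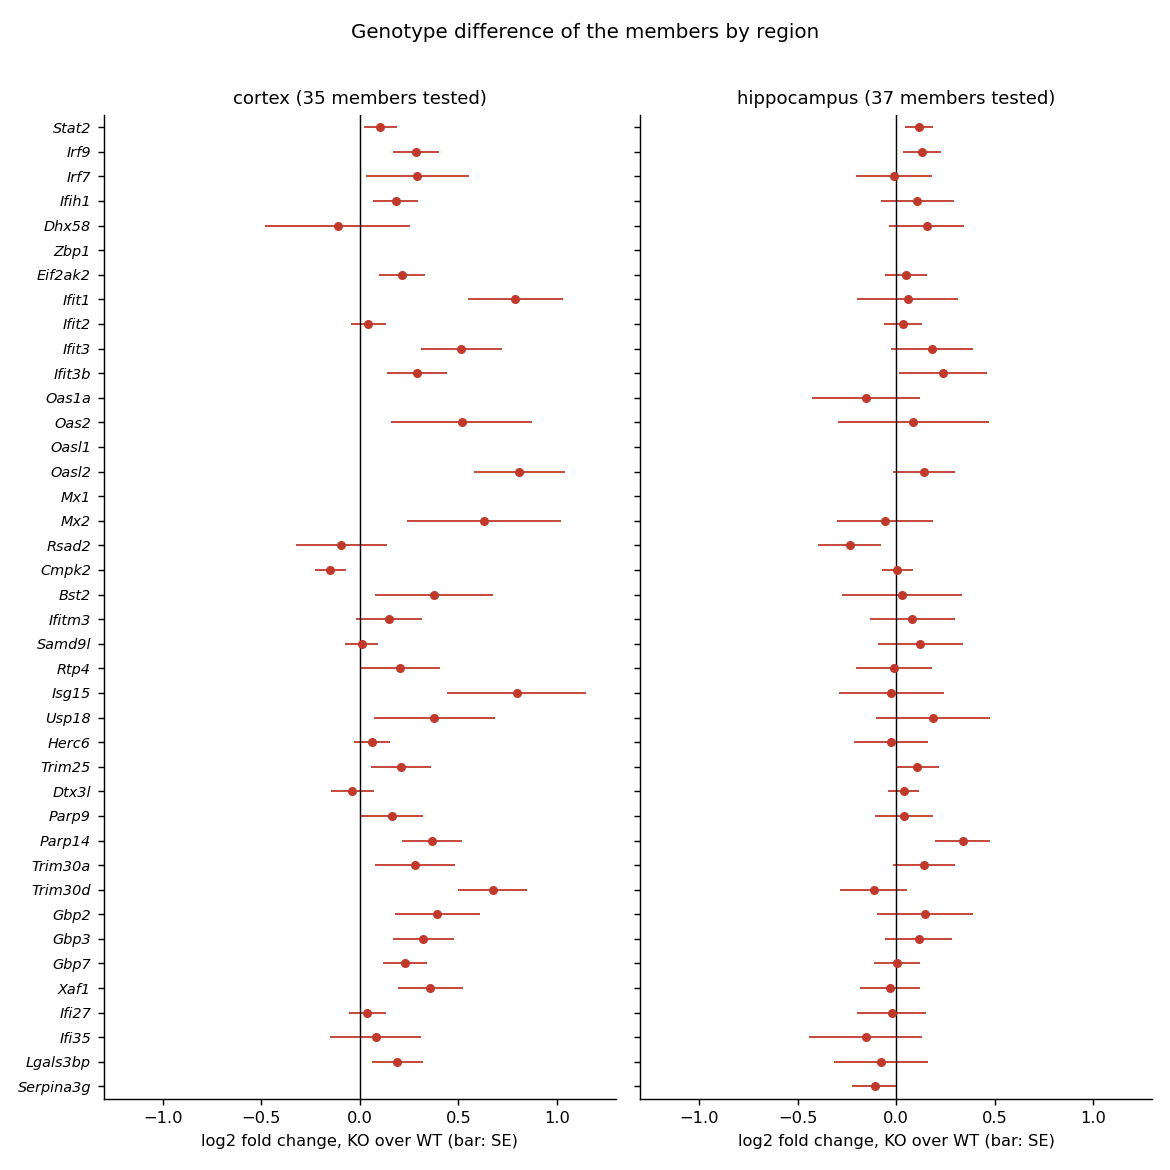
Log2 fold change of KO over WT with its SE for each member tested, in cortex (left, 35 members) and hippocampus (right, 37 members), in the order of roles from Stat2 to Serpina3g. Most cortex points lie right of 0, with a median of 0.23, while the hippocampus points lie on both sides, with a median of 0.04; no point passed the adjusted threshold.

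Whether the genotype difference depended on region was tested with the interaction of genotype and region over all 20 libraries. No member of 37 passed, and none of the 15310 genes tested did (0.0%). At an unadjusted p under 0.05, 3 members were lower (8.11%, where 0.679% of all genes were), that is, with a smaller KO over WT difference in hippocampus than in cortex, and 0 were higher, where 0.718% of all genes were. These were Serpina3g at -2.99 (SE 0.51, adjusted p = 0.122), Trim30d at -0.80 (SE 0.24, adjusted p = 0.9998) and Oasl2 at -0.67 (SE 0.29, adjusted p = 0.9998) on the log2 scale. limma-voom gave 2 members at that level, with the share of all genes not worked out, and 0 after adjustment. The Serpina3g interaction passed in DESeq2 (-3.06, adjusted p = 0.000516) and without KO cortex replicate 5 in edgeR (-3.22, adjusted p = 0.00296). Over its 27 alternatives the adjusted p of Serpina3g lay between 0.000516 and 0.9999, and 3 passed, 2 of them the DESeq2 fits with and without independent filtering. This interaction is a fold over 1 to 3 reads per WT cortex library: Serpina3g had not passed the filter in cortex, and its hippocampus libraries held 61 to 123 reads. Without KO cortex replicate 2 the Oasl2 interaction was -0.36.

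Region gave calls where genotype gave none. In WT libraries 10 of 36 tested members differed between hippocampus and cortex, 4 higher and 6 lower in hippocampus. This is 27.8% of the members, beside 39.5% of all 14849 genes, with 18.8% higher and 20.7% lower. In KO libraries 11 of 37 tested members differed, 2 higher and 9 lower in hippocampus, which is 29.7%, beside 38.8% of all 15032 genes, with 19.2% higher and 19.6% lower. Of the 36 members tested in both genotypes, 8 passed in both, all in the same direction in KO and WT. Serpina3g and Ifi27 were higher in hippocampus, and Herc6, Samd9l, Ifih1, Cmpk2, Ifit2 and Parp14 lower. The share of all genes that passed in both genotypes was not worked out. The share of members that differed was below that of all genes in both genotypes. The genes were not matched for level, and most members had low counts, which makes a call harder to reach. In KO libraries the share lower in hippocampus, 24.3%, was above the 19.6% of all genes. There 9 of 37 tested members were above 0 with a median of -0.24, beside 52.1% of all genes and a median of 0.01. Without KO cortex replicate 2 that members' median was -0.10. In WT libraries 20 of 36 were above 0 with a median of 0.02, beside 51.04% of all genes and a median of 0.01.

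Herc6 had 4.46, 6.14, 5.59, 6.21 and 5.73 CPM in KO hippocampus, against 22.7, 27.8, 23.1, 22.4 and 23.2 CPM in KO cortex. In WT libraries it had 8.66, 4.79, 3.79, 5.73 and 5.82 CPM in hippocampus, against 19.5, 23.1, 26.9, 20.4 and 24.2 CPM in cortex. Every hippocampus library was far below every cortex library, with a log2 fold change of -2.09 (SE 0.10, adjusted p = 2.67e-09) in KO libraries and -2.01 (SE 0.17, adjusted p = 1.05e-06) in WT libraries, or 0.234 and 0.249 as linear ratios. Serpina3g, whose hippocampus values are given above, ran the other way, with a log2 fold change of 2.07 (SE 0.32, adjusted p = 0.000176) in KO libraries and 5.05 (SE 0.24, adjusted p = 8.09e-09) in WT libraries. Its hippocampus counts lay between 72 and 123 in KO and between 61 and 88 in WT libraries. The WT ratio rests on 1 to 3 reads per cortex library, and Serpina3f had at most 50 counts in a KO hippocampus library and at most 3 in a WT one.

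Ifi27 had 19.0, 24.2, 13.1, 16.03 and 13.6 CPM in KO hippocampus, against 9.36, 11.8, 8.45, 9.15 and 8.77 CPM in KO cortex. The WT libraries gave 14.47, 20.0, 15.5, 21.9 and 15.8 CPM in hippocampus, against 9.62, 9.32, 8.91, 9.69 and 8.88 CPM in cortex. Regions did not overlap in either genotype, at log2 fold changes of 0.85 (SE 0.16, adjusted p = 0.00101) in KO and 0.90 (SE 0.11, adjusted p = 2.96e-05) in WT libraries. The region difference of Ifi27 passed in every fit that left out 1 library. The hippocampus libraries with the highest Ifi27 of each genotype, KO replicate 2 and WT replicate 4, also had the most choroid plexus and ependyma markers. The part of these markers in the region difference was not tested.

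Samd9l had 3.99, 7.03, 5.76, 5.20 and 8.73 CPM in KO hippocampus, against 9.36, 9.65, 9.45, 8.75 and 8.29 CPM in KO cortex, and 5.66, 7.69, 4.07, 5.11 and 5.91 CPM in WT hippocampus, against 9.96, 9.28, 8.22, 8.13 and 9.81 CPM in WT cortex. Its log2 fold changes were -0.57 (SE 0.17, adjusted p = 0.0177) in KO and -0.69 (SE 0.14, adjusted p = 0.00180) in WT libraries, with KO hippocampus replicate 5 inside the cortex range. Ifih1 had 2.92, 6.14, 3.96, 4.04 and 5.36 CPM in KO hippocampus, against 7.44, 7.96, 7.93, 6.13 and 6.72 CPM in KO cortex, and 3.97, 4.55, 3.51, 4.68 and 4.20 CPM in WT hippocampus, against 5.62, 7.77, 5.59, 6.53 and 6.44 CPM in WT cortex. The sensor was lower in hippocampus, at log2 fold changes of -0.70 (SE 0.18, adjusted p = 0.00656) in KO and -0.62 (SE 0.12, adjusted p = 0.00101) in WT libraries, and KO hippocampus replicate 2 reached the lowest KO cortex library. Cmpk2 had 27.1, 23.7, 22.3, 20.9 and 21.2 CPM in KO hippocampus and 24.9, 23.2, 23.3, 20.8 and 23.5 CPM in WT hippocampus, all below the cortex libraries of the same genotype, at log2 fold changes of -0.34 (SE 0.08, adjusted p = 0.00329) and -0.50 (SE 0.08, adjusted p = 0.000314). Ifit2 averaged 11.9 ± 1.001 CPM in KO hippocampus and 11.7 ± 1.42 CPM in WT hippocampus, also below every cortex library of its genotype (log2 fold changes -0.41 (SE 0.10, adjusted p = 0.00416) and -0.40 (SE 0.09, adjusted p = 0.00309)).

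**Figure D4:**
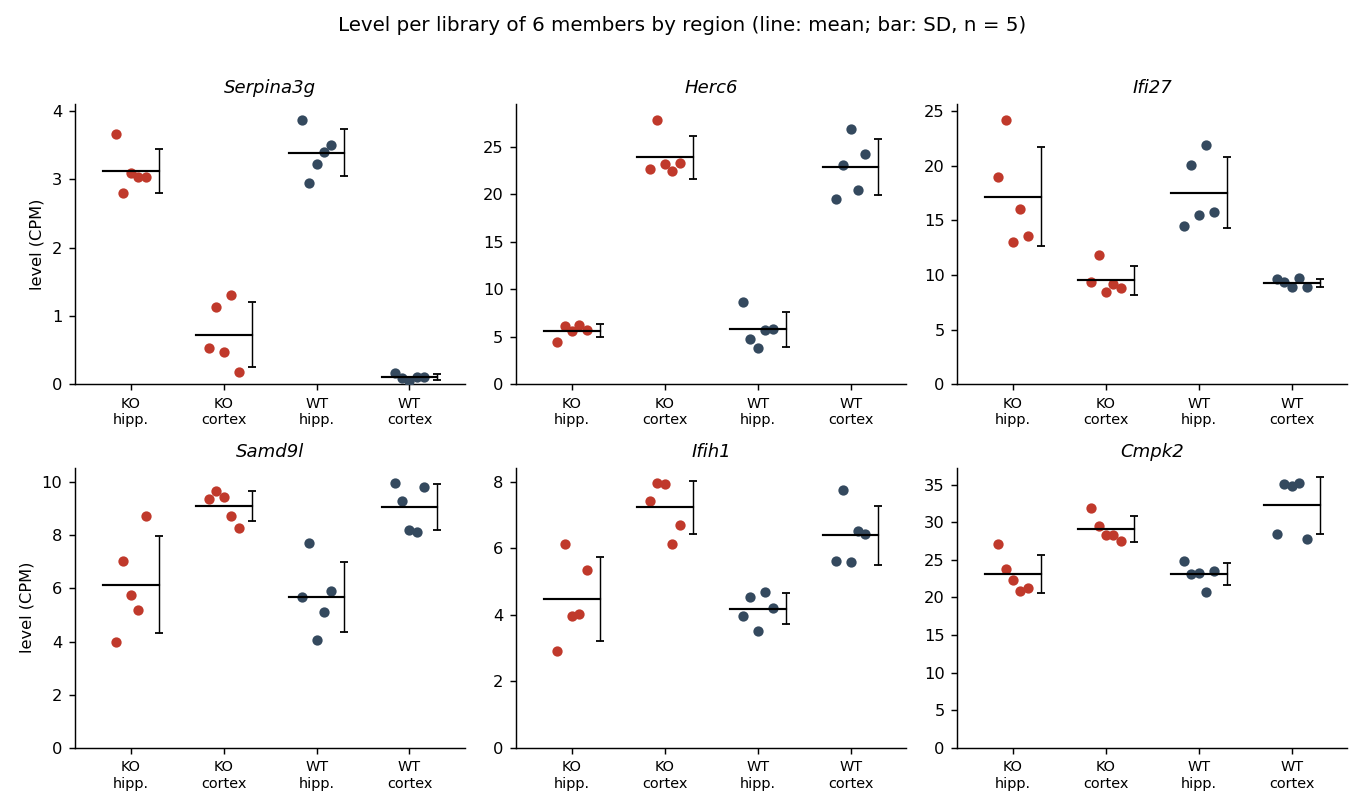
Level in CPM (linear axis from 0) of 6 members, 1 point per library, for KO hippocampus, KO cortex, WT hippocampus and WT cortex, with the mean as a line and the SD as a bar. Serpina3g and Ifi27 are higher in hippocampus in both genotypes, and Herc6, Samd9l, Ifih1 and Cmpk2 are lower.

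Of the other region calls, several were lost when single libraries were left out. Parp14 was lower in hippocampus at -0.46 (SE 0.16, adjusted p = 0.0336) in KO and -0.43 (SE 0.14, adjusted p = 0.0217) in WT libraries. Its KO call was lost in 5 of 10 fits without 1 library, those without KO cortex replicate 1, 2 or 4 or KO hippocampus replicate 1 or 2 (adjusted p from 0.0514 to 0.0994), and its WT call was lost without WT cortex replicate 1 (adjusted p = 0.0586) or replicate 5 (adjusted p = 0.0529). In WT libraries Trim30d and Oasl2 were higher in hippocampus, at 0.45 (SE 0.17, adjusted p = 0.0467) and 0.42 (SE 0.14, adjusted p = 0.0330). Each held in only 2 of 10 fits without 1 library. These were the fits without WT cortex replicate 5 or WT hippocampus replicate 4 for Trim30d. For Oasl2 they were those without WT cortex replicate 1 or WT hippocampus replicate 3. Trim30d was also lost in DESeq2 with and without independent filtering (adjusted p = 0.084). In the fit with the replicate block it was lost too (adjusted p = 0.0558), and Lgals3bp passed instead. In KO libraries Gbp7, with 5.21, 7.46, 7.93, 6.95 and 7.30 CPM in hippocampus, against 11.1, 9.19, 9.71, 10.3 and 7.56 CPM in cortex, was lower at -0.47 (SE 0.13, adjusted p = 0.0104), Mx2 was lower at -0.92 (SE 0.24, adjusted p = 0.00922), and Ifit3 was lower at -0.61 (SE 0.22, adjusted p = 0.0419). The Ifit3 call was lost in 7 of 10 fits without 1 library, those without KO cortex replicate 1, 2 or 4 or KO hippocampus replicate 1, 2, 3 or 4. Without KO cortex replicate 2 the Ifit3 value was -0.38 (adjusted p = 0.124). The call was also lost in edgeR with total counts (adjusted p = 0.0531) and in limma-voom (adjusted p = 0.0525).

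The rest of the pathway was described from lists of its genes. None of the 20 interferon genes on the list, the ligands, was listed in either table. All 9 receptors and kinases were listed and 8 were tested in each region, with 0 past the threshold and medians of -0.01 in cortex and 0.03 in hippocampus. Ifnar1, a chain of the type I interferon receptor, averaged 58.7 ± 3.15 CPM in KO cortex and 57.7 ± 3.11 CPM in WT cortex, and 52.5 ± 3.39 CPM in KO hippocampus and 50.6 ± 1.16 CPM in WT hippocampus. Ifngr2, a chain of the type II receptor, had the smallest p among the receptors in cortex, at 43.3 ± 1.08 CPM in KO and 47.0 ± 1.65 CPM in WT cortex (log2 fold change -0.12, adjusted p = 0.265, edgeR). Ifnar2 averaged 13.9 ± 1.16 CPM in KO cortex and 12.5 ± 0.91 CPM in WT cortex (SD, n = 5 each). The log2 fold change of Ifngr1 was -0.10 in cortex and -0.08 in hippocampus, and that of Tyk2, a receptor kinase, was 0.10 in hippocampus.

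Of 7 transcription factors outside the set, 7 were tested and 0 passed in either region. Irf8, a factor of microglia, averaged 3.76 ± 0.751 CPM in KO hippocampus and 3.10 ± 0.654 CPM in WT hippocampus, and Irf5 3.19 ± 0.334 and 3.68 ± 0.518 CPM. The log2 fold changes of Stat3 and Irf1 in cortex were 0.05 and 0.11, and that of Irf3 in hippocampus was 0.05. Of the nucleic acid sensing genes, 13 were tested in each region, with 0 past the threshold. Aim2, a sensor of cytosolic DNA, averaged 1.61 ± 0.281 CPM in KO cortex and 1.08 ± 0.27 CPM in WT cortex (log2 fold change 0.58, adjusted p = 0.266, edgeR). In hippocampus, Ikbke, a kinase that activates Irf3, averaged 0.971 ± 0.133 CPM in KO and 0.602 ± 0.126 CPM in WT (log2 fold change 0.69, adjusted p = 0.991, edgeR). Cgas, another DNA sensor, averaged 2.61 ± 0.307 CPM in KO and 2.10 ± 0.25 CPM in WT hippocampus, and Ddx58, a sensor of short double-stranded RNA, 6.45 ± 0.638 and 5.56 ± 0.473 CPM. In cortex the log2 fold changes of Ticam1, an adaptor of Toll-like receptors, and Ddx58 were -0.24 and 0.16.

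Of the genes that restrain the response, 11 were tested in each region and 0 passed. Trex1, a nuclease that degrades cytosolic DNA, averaged 3.81 ± 0.962 CPM in KO cortex and 2.52 ± 0.599 CPM in WT cortex (log2 fold change 0.59, adjusted p = 0.258, edgeR), and 3.53 ± 0.67 CPM in KO hippocampus and 3.14 ± 0.737 CPM in WT hippocampus. Samhd1, which breaks down nucleotides, averaged 18.1 ± 0.978 CPM in KO hippocampus and 16.7 ± 0.976 CPM in WT hippocampus. Sp100, a nuclear body protein, averaged 3.25 ± 0.497 CPM in KO cortex and 2.72 ± 0.281 CPM in WT cortex. The log2 fold change of Rnaseh2c, a subunit of ribonuclease H, was -0.12 in cortex and -0.21 in hippocampus. Of the other cell type lists, neuron markers were above 0 in cortex for 1 of 9 genes, with 0 past the threshold. At an unadjusted p under 0.05 (edgeR), 3 of 9 neuron, 3 of 12 microglia and 3 of 10 astrocyte markers were lower in KO cortex. None of these 3 lists had a marker higher at that level. Of all genes tested in cortex, 6.75% were lower and 8.08% higher. Microglia markers were above 0 in cortex for 1 of 12 genes and in hippocampus for 4 of 12, with 0 past the threshold, and summed to between 374 and 404 CPM in KO cortex and between 386 and 436 CPM in WT cortex. Endothelial markers were above 0 for 4 of 10 genes in each region, with sums of 269 to 314 CPM in KO cortex and 266 to 304 CPM in WT cortex. Astrocyte markers were above 0 for 0 of 10 genes in cortex and 1 of 10 in hippocampus, and the part of cell makeup in the members' levels was not tested.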

How the data were processed

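Gene expression was measured by RNA sequencing of 20 mouse brain libraries. Per the labels' protocols, total RNA was extracted from flash-frozen tissue with the RNeasy Mini kit and made into Illumina libraries. Per the submitters' processing notes, STAR 2.7.3a and Partek were used with build mm10. No source used here gives the annotation, the strand setting or any filter. The authors deposited expected counts, that is, estimated counts per gene, in one table per region, of which 22.6% to 27.3% per library are not whole (tolerance 0.001). The lowest total of a listed gene was 10 counts.

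The expected counts were rounded and tested with edgeR 4.0.16 (R 4.3.3; filterByExpr by group, TMM scaling, quasi-likelihood test, Benjamini-Hochberg adjustment, threshold 0.05), each genotype comparison within its region. The interaction and the region comparisons used genes in both tables. Tables were read in Python 3.11.15. The alternatives were DESeq2 size factors, DESeq2 1.42.0 (with and, added after seeing the data, without its independent filtering), limma 3.58.1 (voom), total counts, no filter, the replicate number as a block, and leaving out each library. The scripts were tested on simulated data with 200 changed genes. No 2 libraries of the same group agreed within sampling noise, and pairs from different groups were not compared in this way.

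Same-numbered libraries were checked for shared deviations from their group means. In WT mice the correlation between hippocampus and cortex lay between 0.109 and 0.409 for all 5 numbers. Between genotypes in hippocampus, which cannot share a mouse, it reached 0.307. Libraries of unlike number were not compared. The labels do not give a pairing, and whether the same number marks the same mouse was not tested. Every member is given with its level; fold changes, SE and adjusted p are given for members past the threshold, the 8 smallest p in each genotype comparison, the 3 smallest in the interaction, and the 8 largest called folds at 1 CPM or more in each region comparison. The members and lists were chosen with earlier results of these data known. Kilobases of exon and genome positions follow build mm10. 1 gene of the pathway lists is not reported here.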

Additional observations from a re-analysis of the deposited data

Results flagged for a closer look

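Dixon's test was used to look for a library far from the other 4 in 76 groups of 5 libraries. These were 19 members by 4 groups, and 8 were flagged. The 19 members were those given with full statistics, picked by p or fold in these same data, and they share libraries. The rate of about 1 in 20 that chance gives for independent groups is therefore no measure for this count. KO cortex replicate 2 was the high library in 5 of the 8 flagged groups. It held Oasl2 at 7.136 CPM with the next library at 3.72 CPM, Ifit3b at 8.522 and 5.831 CPM, Rsad2 at 3.08 and 1.859 CPM, and Herc6 at 27.83 and 23.24 CPM. The fifth was Ifi27, at 11.81 CPM with the next at 9.355 CPM. WT hippocampus replicate 2 was high for Ifit1, at 4.693 CPM with the next library at 2.647 CPM, and for Isg15, at 1.161 and 0.6516 CPM. KO hippocampus replicate 1 was low for Parp14, at 3.362 CPM with the next library at 4.625 CPM.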

How the results depend on the processing

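Of the values that answer a comparison, 125 counted as the same under the alternatives, 3 moved and 1 reversed. A count of members called was the same within a ratio of 1.5. A median was the same if it kept its sign and shifted by less than the SD between libraries (0.23 in cortex, 0.15 in hippocampus). By this rule the cortex median of 0.13 without KO cortex replicate 2 counted as the same. The SD was larger than the main median itself, at 0.2315 against 0.2291 in cortex and 0.1523 against 0.0402 in hippocampus. A fall toward 0 that kept the sign could therefore never count as moved. For the medians, the label does not show that they hold without a given library. Members called in the interaction were 1, Serpina3g, in DESeq2, with or without independent filtering, and 1 without KO cortex replicate 5, against 0 in edgeR; leaving out 1 library gave 0 to 1. The hippocampus median of KO over WT lay between -0.0069 (without KO hippocampus replicate 2) and 0.096 (without WT hippocampus replicate 2). Of the alternative values of the members given with full statistics by the naming rule, 586 stayed on their side of the threshold, 28 lost the call, 3 gained one and 8, all DESeq2 in cortex, had no adjusted p, and the cause was not tested; Oasl2 between WT regions is not among these. For pathway genes 398 stayed and 10 had none. Over all cortex genes, calls numbered 4 in edgeR, 162 in DESeq2, 135 in DESeq2 without independent filtering and 563 without WT cortex replicate 5, with 0 members among them (DESeq2 with its filtering set an adjusted p for 1 of 35 members). With the replicate block the members' median of KO over WT was 0.22 in cortex and 0.04 in hippocampus. The replicate block gave 10 calls in WT and 11 in KO libraries between regions, of which 9 and 10 were among the calls without it; in KO libraries Parp14 was lost (adjusted p = 0.0502, edgeR) and Gbp3 gained. Only between the WT regions were the correlations of same-numbered libraries all above 0. In KO regions the correlations ran from -0.155 to 0.199. Between genotypes they ran from -0.0516 to 0.145 in cortex and from -0.0146 to 0.307 in hippocampus. Depth limits Zbp1, Mx1 and Oasl1, with at most 8 counts in a library, and Serpina3g in WT cortex, with at most 3.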
